A study of Mus musculus with 4 samples.

Results

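Potassium channel genes were examined in single-nuclei RNA sequencing (snRNAseq) of the mouse hippocampus after repeated social defeat (RSD). The genes were taken by name: every gene whose symbol starts with Kcn, without symbols ending in os or holding -ps, and with at least 50 UMIs (unique molecular identifiers, each counted as 1 RNA molecule) over the 8 deposited count matrices. The gene list of 56748 identifiers held 97 such symbols, and 76 reached 50 UMIs. Of these, 73 encode channel subunits or their auxiliary subunits, and 3 do not (the noncoding RNAs Kcnq1ot1 and Kcnmb4os2, and Kcnrg, a regulator). Just inside the minimum were Kcnj14 with 103 UMIs and Kcnk5 with 111 UMIs. Just outside were Kcnmb4os1 with 45 UMIs and Kcng4 with 43 UMIs, and Kcnj8, the pore of a vascular ATP-sensitive channel, had 36 UMIs. The rule uses no measured difference between groups, but it was set with earlier results of these data known.

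The study compared stressed with undisturbed male mice in a diet experiment and a genotype experiment. Hippocampi of 3 mice were pooled per condition and nuclei were collected 14 h after the last defeat, so each condition is 1 pool. The diet experiment used C57BL/6 mice that ate AIN-76A chow without drug (Control-Vehicle, Stress-Vehicle) or with PLX5622, a CSF1R antagonist that removes microglia (Control-PLX5622, Stress-PLX5622). The genotype experiment used IL-1R1+/+ mice without Cre (Con-IL-1R1+/+, Stress-IL-1R1+/+) and mice in which Vglut2-Cre deletes the interleukin-1 receptor gene Il1r1 (Con-nIL-1R1-/-, Stress-nIL-1R1-/-). In both experiments, stress was RSD by a CD-1 aggressor on consecutive nights. Cre acts wherever Vglut2 has been active, in glutamatergic neurons, so other cells of the nIL-1R1-/- mice keep the receptor gene.

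The 8 pools held 57350 nuclei, of which 56834 were kept after nuclei with over 20% mitochondrial UMIs were left out. Total UMIs per pool ranged from 7534594 to 58081835 and the median UMIs per nucleus from 598 to 5012. The PLX5622 pools were the shallowest, so diet and depth cannot be told apart. Each stressed pool also had fewer total UMIs than the control pool of its diet or genotype. With stress the median per nucleus fell from 2563 to 1325.5 (Vehicle) and from 5012 to 2580 (nIL-1R1-/-). It rose from 598 to 628 (PLX5622) and from 3098.5 to 3218.5 (IL-1R1+/+). Depth thus moved with stress in part, and was examined only by thinning and by leaving out the deepest nuclei. Clusters were named by marker lists that held no Kcn gene, and 30033 nuclei in 23 of 47 clusters were named. The other 26801 nuclei were in clusters that failed the naming rule and were not used. Among them were clusters of 3959 and 3692 nuclei that scored best on the CA2/3 and CA1 lists. Their median depths were 0.63 and 0.782 of the pool median. The CA2/3-like and CA1-like classes may therefore miss shallow nuclei of their type. The main classes were dentate gyrus granule neurons (DG-like, 10037 nuclei), CA1 pyramidal neurons (CA1-like, 4901), CA2/3 pyramidal neurons (CA2/3-like, 3849) and inhibitory neurons (INH-like, 5858). No barcode was shared between pools. In DG-like nuclei the deleted gene, Il1r1, was at 62.2 and 29.1 CPM in the Con- and Stress-IL-1R1+/+ pools and at 11.4 and 9.14 CPM in the Con- and Stress-nIL-1R1-/- pools, and it was the only gene called for genotype in that class.

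Potassium channels let potassium leave the cell, which brings the membrane back to rest after a spike and sets how easily a neuron fires. Voltage-gated (Kv) channels open on depolarization, inward rectifiers (Kir) and 2-pore (K2P) channels hold the resting potential, and calcium-activated channels (BK and SK) follow calcium entry. Auxiliary subunits such as KChIP (Kcnip), Kv beta (Kcnab) and BK beta (Kcnmb) proteins carry no pore and set how many channels reach the membrane and how fast they close. In hippocampal pyramidal neurons the Kv4 channels carry the dendritic A-type current, KCNQ channels carry the M-current, and Kir3 channels answer GABA-B and other Gi-coupled receptors.

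The first question was where each gene was expressed. Levels are CPM, the UMIs of a gene scaled to a total of 1000000 UMIs of the class in a pool. They are given as the median, with the lowest and highest pool, over pools with at least 20 nuclei of the class. Class levels are descriptions with no test, since the classes came from clustering the same nuclei. The 76 genes had 4750684 UMIs in all, and 37.9% of these came from the 9 auxiliary genes, 13.2% from 3 Kv4 genes, 12.2% from 5 KCNQ genes and 10.3% from the 4 BK and sodium-activated genes. The 10 K2P genes had 1.53% and the 5 Kv1 genes 0.44%. Over the channel genes together, DG-like nuclei had 24210 CPM (18642 to 25274), CA1-like 23374 CPM (19811 to 27029), CA2/3-like 20822 CPM (15499 to 22026) and INH-like 17481 CPM (14975 to 19196). The ranges of these neuronal classes overlapped in part, and each lay above the ranges of oligodendrocyte-like (5418 to 6688 CPM) and microglia-like nuclei (5157 to 6580 CPM). Oligodendrocyte precursor-like nuclei had 13597 CPM (12419 to 16498), which overlapped the CA2/3-like and INH-like ranges. In 10 classes with enough nuclei, 55 of 76 genes were highest in a neuronal class, and 19 had a highest class whose range did not overlap the second. Neither share was worked out over all genes, so these counts are not read as particular to channel genes.

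**Figure D1:**
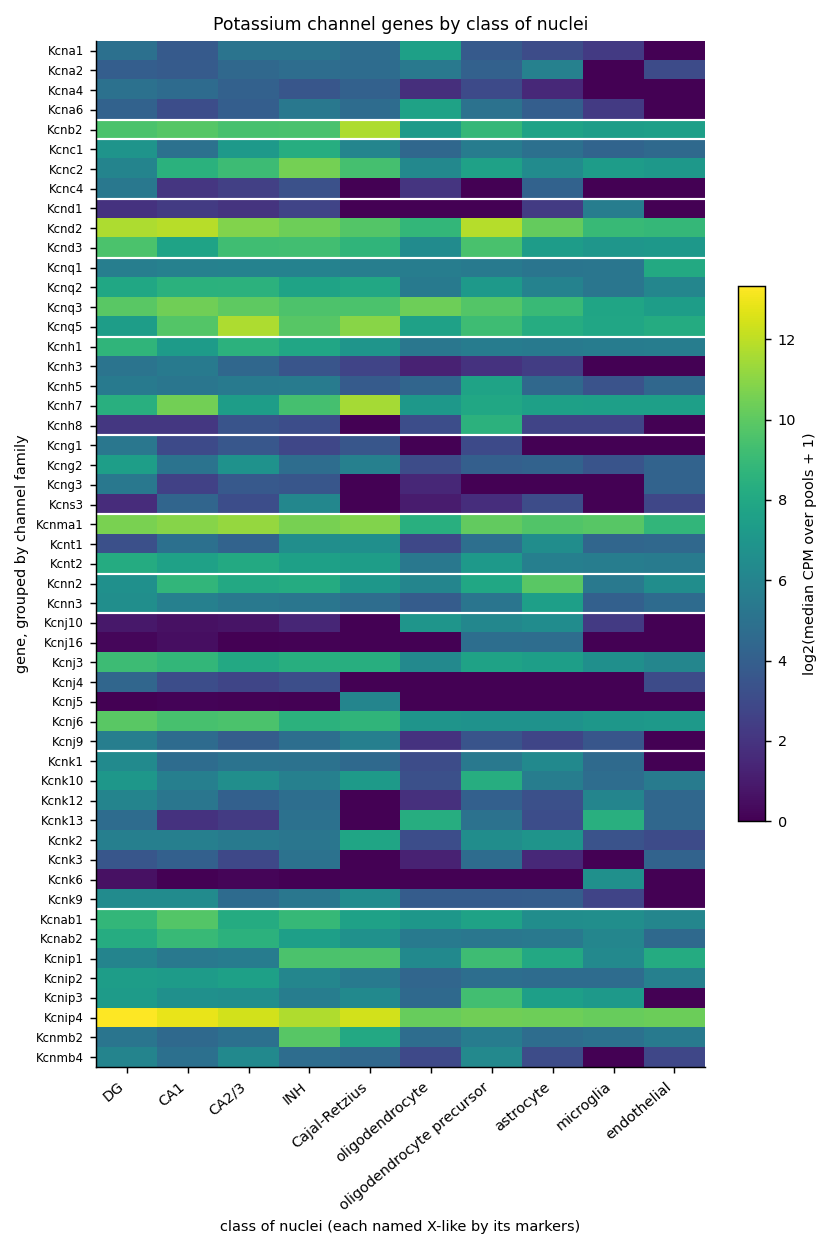
Level of 52 of the channel genes with at least 20 CPM in some class, as log2 of the median CPM over pools plus 1 (colour), for 10 classes of nuclei (columns), grouped by channel family (white lines). Kcnip4 and Kcnd2 are bright in all neuronal columns, and Kcnk6, Kcnh8 and Kcnj5 stand out in a single column each.

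Among Kv4 genes and their partners, Kcnd2, the main A-type pore, had 3722 CPM (2631 to 4606) in CA1-like and 3329 CPM (2292 to 3746) in DG-like nuclei. It had 1769 CPM (1134 to 2144) in CA2/3-like and 1348 CPM (1098 to 1780) in INH-like nuclei, and 3614 CPM (2707 to 4282) in oligodendrocyte precursor-like nuclei. The CA1-like, precursor-like and DG-like ranges overlapped, as did those of CA2/3-like and INH-like nuclei. Kcnd3, its relative, was low in CA1-like nuclei with 210 CPM (176 to 385) and higher in DG-like nuclei with 733 CPM (683 to 892), with no overlap. Kcnip4, a KChIP and the longest of the genes at 1135 kb, had 10190 CPM (6685 to 11144) in DG-like nuclei. Microglia-like nuclei had 1182 CPM (916 to 1660). The part of RNA from other cells in levels of this order in glial classes was not tested. Per kilobase of gene, the highest class median of Kcnip4 was 8.98 CPM per kb and that of Kcnd2 was 7.23 CPM per kb, values closer to each other than their CPM; the part of gene length in the levels was not tested. Over the 10 classes, the genes whose log2(CPM + 1) followed Kcnd2 most closely were Lmo1 (r = 0.95), Csmd1 (r = 0.93) and Ntrk3 (r = 0.93) among 11906 compared. The 10 points share pools, depth and clustering, and these values are descriptions.

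Within Kv3, whose fast channels allow rapid firing, Kcnc1 and Kcnc2 were highest in INH-like nuclei. Kcnc2 had 1457 CPM there (1098 to 1930) and 63.4 CPM in DG-like nuclei (57.2 to 87.9). Among KCNQ genes, Kcnq5 had 3254 CPM (1548 to 3475) in CA2/3-like, 850 CPM (618 to 1107) in CA1-like and 167 CPM (157 to 327) in DG-like nuclei. Kcnq3, a partner in M-channels, ranged from 760 CPM in INH-like to 1361 CPM in CA1-like nuclei among the 4 main neuronal classes, and also reached 1324 CPM (1189 to 1502) in oligodendrocyte-like nuclei. Kcnma1, the BK pore, was highest in CA2/3-like nuclei with 2357 CPM (2042 to 2539), and Kcnmb2, a BK beta subunit that inactivates the channel, was highest in INH-like nuclei with 932 CPM (838 to 1150). The INH-like level of Kcnmb2 did not overlap that of the next class, Cajal-Retzius-like nuclei with 261 CPM.

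Further genes were highest in a class other than the 4 main neuronal ones. Some of them, such as Kcnn2 and Kcnq1, also had a level in neuronal classes. Kcnk6, a K2P channel, had 100 CPM (25.4 to 153) in microglia-like nuclei and at most 0.51 CPM as a median in any other class. That level rests on 58 UMIs. Microglia-like levels come from 6 pools, since the PLX5622 pools held no such nuclei. Kcnk13, whose channel THIK-1 holds the resting potential of microglia, had 335 CPM in microglia-like nuclei and 314 CPM in oligodendrocyte-like nuclei, with overlapping ranges. Kcnh8 had 374 CPM (214 to 559) in oligodendrocyte precursor-like nuclei against 9.93 CPM in CA2/3-like nuclei, the second. Kcna1 and Kcna6, which encode Kv1 channels, had 186 CPM (62.0 to 221) and 202 CPM (138 to 268) in oligodendrocyte-like nuclei. Kcnj10, the glial Kir4.1, had 122 CPM in oligodendrocyte-like and 87.4 CPM in astrocyte-like nuclei and under 2 CPM in the 4 main neuronal classes. Kcnn2, an SK channel, was highest in astrocyte-like nuclei with 965 CPM (619 to 1302), above CA1-like nuclei with 430 CPM (357 to 461). Kcnq1 had 271 CPM (253 to 539) in endothelial-like nuclei (5 pools, 158 UMIs) against 59.7 CPM in INH-like nuclei. Its antisense RNA Kcnq1ot1 overlaps it, and since the strand used in counting is not given in the sources used here, reads of the pair cannot be told apart.

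The INH-like nuclei held an Lhx6 lineage and an Adarb2 lineage, which arise from different parts of the embryonic forebrain. The Lhx6 lineage joined clusters of 3374 and 806 nuclei. In the smaller, Egfr, a marker on the Adarb2 list, was among the leading genes, and its levels were not examined apart. Kcns3, a modifier subunit of Kv2, had 89.3 CPM in the Lhx6 lineage and 16.6 CPM in the Adarb2 lineage, and Kcnma1 had 1743 and 920 CPM. Both were higher in the Lhx6 lineage in 8 of 8 pools. Kcnq5 ran the other way with 671 CPM in the Lhx6 lineage and 1669 CPM in the Adarb2 lineage, as did Kcnip1 with 565 and 1224 CPM. Neither was higher in the Lhx6 lineage in any pool.

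The next question was which channel genes changed with stress. For each class, UMIs were summed per pool and fitted with edgeR's quasi-likelihood test over all genes. The pair (Vehicle, PLX5622, IL-1R1+/+, nIL-1R1-/-) and RSD were terms, so the average RSD effect over 4 pairs of pools was tested. Genes were called at an adjusted p (Benjamini-Hochberg) under 0.05, and a call did not require a change in every pair. The p-values rest on the spread among these pools, each of 3 mice. edgeR also draws each gene's spread toward that of all genes tested (moderation), so no p-value rests on 1 gene's pools alone. Low counts kept genes out of the fit: 63 of 76 genes were tested in INH-like, 60 in DG-like, 59 in CA1-like and 61 in CA2/3-like nuclei. In CA1-like nuclei 1 of 59 tested genes was called, Kcnab2, while 0.487% of all genes were. No channel gene was called in DG-like (all genes 0.085%), CA2/3-like (0.142%) or INH-like nuclei (0.00775%), where the unadjusted p was under 0.05 for 10, 10 and 12 genes. As shares of the genes tested, these unadjusted counts were 16.7%, 16.4% and 19.0% of channel genes against 11.9%, 12.2% and 8.22% of all genes. In CA1-like nuclei 22.0% of channel genes and 11.1% of all genes were under 0.05 before adjustment. The DESeq2 counts were 1 in CA1-like, 2 in CA2/3-like and 0 in DG-like and INH-like nuclei. DESeq2 gave no adjusted p for part of the channel genes (counts at the end), so those could not be called. The share of all genes called by DESeq2 is not given here, so these counts are not read as particular to channel genes.

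Kcnab2 encodes Kv beta 2, an oxidoreductase-like subunit that binds Kv1 channels and helps carry them to axons. It lies on chr4:152474250-152562651 on the minus strand (GRCm39). In CA1-like nuclei it had 459, 358, 366 and 376 CPM in the Control-Vehicle, Control-PLX5622, Con-IL-1R1+/+ and Con-nIL-1R1-/- pools. The stressed pools, in the same order, had 579, 583, 532 and 538 CPM. Every stressed pool was above every control pool. Kcnab2 rose by a log2 fold change of 0.48 (SE 0.10, edgeR adjusted p = 0.0176). Each of the 4 sublibraries gave a higher level with stress in each of the 4 pairs, by as little as 0.033 on the log2 scale (PLX5622, 27 and 8 UMIs). Sublibraries hold nuclei of the same pools, so they are not replicates and say nothing of the difference between mice. The call held with the gene-length trend removed (adjusted p = 0.000836). Kcnab2 was also called in the diet pools alone (0.0487) and the genotype pools alone (0.00525). Both fits use pools that gave the call, so they are not independent evidence for it. Each left 1 residual degree of freedom per gene, before moderation over all genes. Each also called more channel genes in CA1-like nuclei than the fit on all pools. The call of Kcnab2 was lost without any 1 of the PLX5622, IL-1R1+/+ or nIL-1R1-/- pools (adjusted p 0.0506 to 0.149), with log2 values of 0.44 to 0.45. It was also lost when pools were not treated as pairs (adjusted p = 0.566).

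Kcnab2 was also higher with stress in all 4 pairs in the other excitatory classes. In DG-like nuclei the control pools had 310, 260, 243 and 240 CPM and the stressed pools 392, 380, 322 and 302 CPM, in the order above. The ranges overlapped by the Control-Vehicle pool, and the log2 fold change of 0.38 (SE 0.10) was not called (edgeR adjusted p = 0.117). With the gene-length trend removed it was (adjusted p = 0.038). In CA2/3-like nuclei the log2 fold change was 0.33 (SE 0.12, adjusted p = 0.23). In INH-like nuclei it was 0.18 (SE 0.12, adjusted p = 0.717), and the nIL-1R1-/- pair went down, from 192 to 177 CPM.

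**Figure D2:**
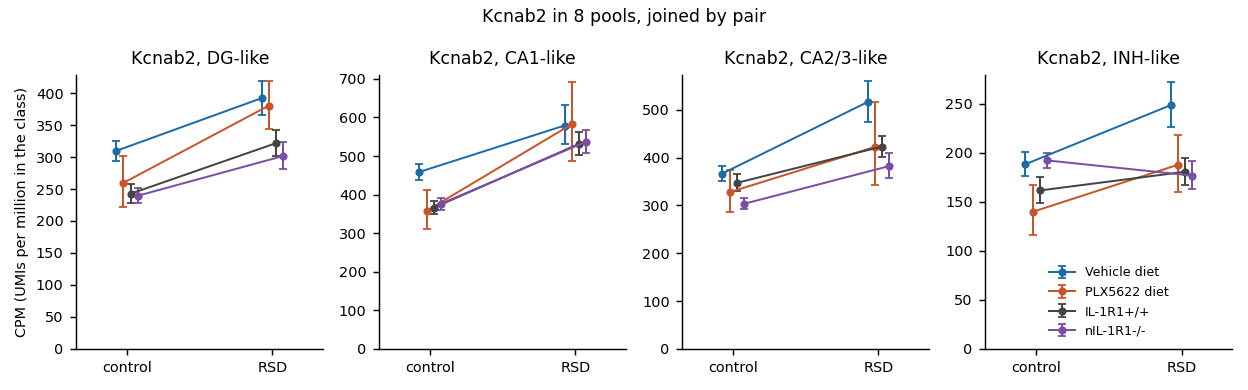
Kcnab2 CPM (y axis) in control and RSD pools (x axis) of 4 neuronal classes. Lines join the pools of a pair (colours) and bars are 95% exact Poisson intervals, which cover counting error only. In every pair of DG-like, CA1-like and CA2/3-like nuclei the RSD point is above its control, and in CA1-like nuclei all 4 stressed pools lie above all 4 control pools.

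Genes with at least 50 UMIs were also counted by whether they moved the same way in all 4 pairs. In DG-like nuclei 8 of 63 channel genes (12.7%) were higher in every pair and 6 (9.52%) lower, beside 10.4% and 9.53% of all genes. In CA1-like nuclei 7 of 60 (11.7%) were higher and 9 (15.0%) lower, beside 10.6% and 9.07%. In CA2/3-like nuclei 9 of 61 (14.8%) and 8 (13.1%) stood beside 11.6% and 10.1%, and in INH-like nuclei 9 of 63 (14.3%) and 8 (12.7%) beside 8.71% and 8.46%. No test was made of these shares, which differ from those of all genes by a few genes in each class. Kcnj3 and Kcnk10 were the 2 channel genes lower in every pair in all 4 classes. Kcnab2 was higher in every pair in the 3 excitatory classes. The share of all genes with such a pattern over several classes was not worked out, so these are not read as particular to channel genes. The classes also come from the same pools, so their directions are not independent.

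Kcnj3 encodes Kir3.1 (GIRK1), which opens when GABA-B, adenosine or other Gi-coupled receptors act. In DG-like nuclei it had 548, 488, 755 and 749 CPM in the control pools and 353, 361, 580 and 698 CPM in the stressed pools, in the same order of pairs. The groups overlapped, since both genotype pairs were above both diet pairs, but each stressed pool was below its own control. All 4 sublibraries, which are not replicates, had a lower level with stress in the Vehicle, PLX5622 and IL-1R1+/+ pairs. In the nIL-1R1-/- pair 3 of 4 did. The smaller of the 2 DG-like clusters held 25.8% and 53.3% of the class in Control- and Stress-Vehicle, 70.2% and 82.2% in Control- and Stress-PLX5622 and 11.6% to 25.4% in the genotype pools. Within the larger cluster alone the log2 fold change was -0.35 for Kcnj3 (edgeR adjusted p = 0.0661) and 0.31 for Kcnab2 (0.117). The log2 fold change was -0.40 (SE 0.11, edgeR adjusted p = 0.132) in DG-like, -0.40 (SE 0.11, 0.0927) in CA1-like, -0.45 (SE 0.12, 0.111) in CA2/3-like and -0.32 (SE 0.11, 0.45) in INH-like nuclei, and none was called. Its partners in neuronal Kir3 channels, Kcnj6 and Kcnj9, were not among the genes lower in every pair of any class.

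Kcnk10 encodes TREK-2, a K2P channel that Gq- and Gs-coupled receptors close. In CA1-like nuclei it had 58.2, 62.9, 59.2 and 69.4 CPM in the control pools and 34.8, 36.1, 48.1 and 44.8 CPM in the stressed pools. No stressed pool reached a control pool. The log2 fold change of -0.56 (SE 0.15) missed the threshold with an edgeR adjusted p of 0.0548, and passed it with another scaling of library size (RLE, 0.0489). It was -0.45 (SE 0.12, adjusted p = 0.303) in INH-like and -0.27 in both DG-like and CA2/3-like nuclei. Kcnk10 and Kcnj3 are 148.9 and 162.4 kb long, and their values with the gene-length trend removed are not given here.

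The 250 bases before the start of the canonical transcript are shown for these 2 genes. Both were lower in every pair of the 4 main neuronal classes, and they were picked after their values were seen. The windows are chr2:55325551-55325800 on the plus strand (Kcnj3) and chr12:98544570-98544819 on the minus strand (Kcnk10), read 5′ to 3′ from GRCm39 with GENCODE vM39 annotation. Both are poor in G and C, with 44.4% and 42.4% against a median of 60.8% over 74 channel gene promoters and 53.2% over 21630 protein-coding promoters. A long noncoding RNA, Gm74713, is annotated on the opposite strand across the start of Kcnj3.
Kcnj3: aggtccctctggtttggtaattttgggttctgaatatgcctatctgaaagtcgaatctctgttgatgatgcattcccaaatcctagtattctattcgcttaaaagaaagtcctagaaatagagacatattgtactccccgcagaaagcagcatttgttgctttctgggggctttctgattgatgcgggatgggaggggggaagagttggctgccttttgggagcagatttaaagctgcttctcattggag
Kcnk10: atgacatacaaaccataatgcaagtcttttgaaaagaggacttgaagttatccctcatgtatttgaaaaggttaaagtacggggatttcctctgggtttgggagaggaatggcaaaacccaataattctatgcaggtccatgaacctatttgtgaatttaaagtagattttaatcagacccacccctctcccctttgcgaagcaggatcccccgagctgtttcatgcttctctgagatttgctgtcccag
Neither window held the GC box GGGCGG on either strand, which was in 35 of the 74 channel gene promoters (47.3%) and 36.4% of all, so no letters are in capitals. None of the 74 held the cAMP response element TGACGTCA (1.69% of all promoters). Its shorter core TGACG was in 12 of 74 (16.2%) against 18.0% of all, and the E-box CACGTG was in 4 (5.41%) against 6.29%.

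Kcnh8, an ELK channel, had the smallest p among channel genes lower with stress in INH-like nuclei. It had 10.3, 19.8, 9.36 and 12.2 CPM in controls and 5.79, 4.49, 6.57 and 5.12 CPM after RSD. These low levels rest on 302 UMIs over both INH-like lineages and all pools. The groups did not overlap, but the log2 fold change of -1.04 (SE 0.26) was not called (edgeR adjusted p = 0.288). Kcnt1, a sodium-activated channel, had a log2 fold change of 0.36 in INH-like nuclei (SE 0.12, adjusted p = 0.395).

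**Figure D3:**
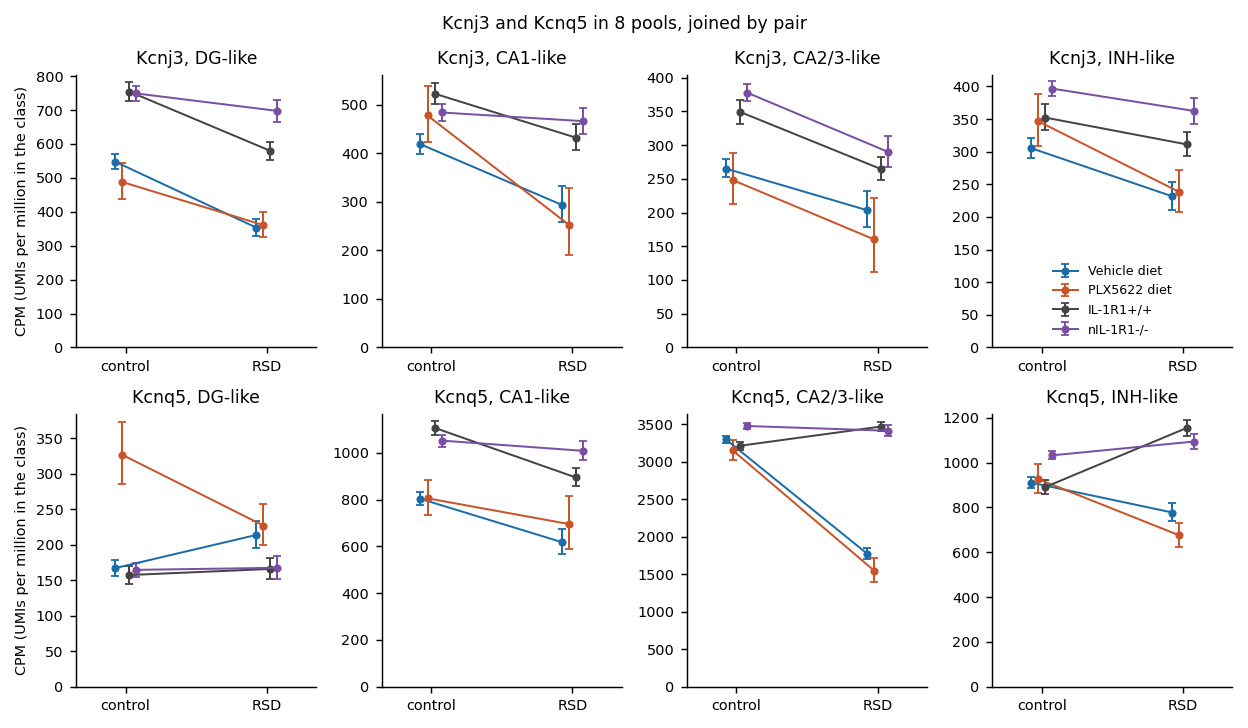
Kcnj3 (top) and Kcnq5 (bottom) CPM (y axis) in control and RSD pools (x axis) of 4 neuronal classes, with lines joining the pools of a pair and 95% exact Poisson intervals for counting error. Each Kcnj3 RSD point is below its control, while Kcnq5 in CA2/3-like nuclei goes from 3297 and 3149 CPM to 1775 and 1548 CPM in the diet pairs and lies between 3211 and 3475 CPM in the genotype pairs.

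A further question was whether stress acted alike in both experiments. The difference between the RSD effect in the genotype pairs and in the diet pairs was called for 4 of 61 channel genes in CA2/3-like nuclei (6.56%, all genes 1.1%). None was called in DG-like (all genes 0.0765%), CA1-like (0.124%) or INH-like nuclei (0.0387%). Before adjustment, 14 channel genes in CA2/3-like, 9 in DG-like, 5 in CA1-like and 5 in INH-like nuclei had a p under 0.05, beside 10.3%, 7.82%, 8.2% and 8.28% of all genes. This test was chosen after the values had been seen and rests on 2 pairs against 2 pairs, with each gene's spread moderated over all genes.

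Kcnq5, an M-channel subunit at chr1:21468627-22032166, carried the clearest of these differences. In CA2/3-like nuclei the control pools had 3297, 3149, 3211 and 3475 CPM, in the order of pairs above. The Stress-Vehicle and Stress-PLX5622 pools had 1775 and 1548 CPM, and the Stress-IL-1R1+/+ and Stress-nIL-1R1-/- pools 3468 and 3411 CPM. Stressed pools were thus at about the control level in the genotype experiment and well below it in the diet experiment. Summed markers of other cell types moved with this in part. The 7 Cajal-Retzius markers went from 485 to 284 and from 527 to 298 CPM with stress in the diet pairs, and from 432 to 496 and from 532 to 495 CPM in the genotype pairs. The 7 CA1 markers went from 173 to 108 and from 163 to 71.2 CPM in the diet pairs, and from 170 to 132 and from 180 to 179 CPM in the genotype pairs. Not every list followed Kcnq5. The 8 DG markers fell in every pair, from 407 to 346 and from 360 to 280 CPM in the diet pairs. In the genotype pairs they fell from 378 to 280 and from 536 to 337 CPM. The part of such markers in the result was not tested. The difference was 1.07 on the log2 scale (SE 0.20, edgeR adjusted p = 0.00011). The larger of the 2 CA2/3-like clusters held 74.4% and 72.0% of the class in the stressed diet pools and 81.9% to 91.5% in the others. It had 270 and 95 nuclei in Stress-Vehicle and Stress-PLX5622, against 806 and 321 in Control-Vehicle and Control-PLX5622. Within that cluster alone the difference was 1.13 (SE 0.21, adjusted p = 0.000241). All 4 sublibraries, which are not replicates, had a lower level with stress in both diet pairs. The call was lost without any 1 of the genotype pools and with nuclei thinned to 500 UMIs (adjusted p = 0.247). The experiments also differed in mouse line and depth, which cannot be told apart here. Kcnq5 is also a long gene (563.5 kb). The share of UMIs in long genes fell more with stress in the diet pairs than in the genotype pairs, as given below. The length trend was not removed in this test of a difference, so the part of length in it was not tested. In INH-like nuclei Kcnq5 went from 911 to 777 and from 926 to 675 CPM in the diet pairs, while the IL-1R1+/+ pair went from 891 to 1154 CPM. That difference was not called.

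The other 3 genes with such a difference were Kcnc2, Kcnk2 and Kcnt1. Kcnk2, the TREK-1 channel, had 38.3, 34.8, 50.0 and 44.4 CPM in the CA2/3-like control pools and 63.4, 125, 37.9 and 39.8 CPM in the stressed pools (difference -1.25, SE 0.29, edgeR adjusted p = 0.00352). It was higher with stress in the diet pairs and lower in the genotype pairs. Kcnc2 ran the other way (0.78, SE 0.20, adjusted p = 0.0183) and Kcnt1 the same way as Kcnk2 (-1.35, SE 0.38, adjusted p = 0.04). Unlike Kcnq5, these 3 were not called within the larger cluster alone (adjusted p 0.391 to 0.754).

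Gene length moved with the RSD effect. In CA2/3-like nuclei the share of UMIs in genes over 100 kb was 63.9% and 64.3% in the diet controls and 58.6% and 55.6% in the stressed diet pools, and 66.7% and 68.0% against 66.0% and 66.1% in the genotype pools. Of the 14 channel genes over 300 kb, 12 had a log2 fold change under 0 in DG-like and 12 in CA2/3-like nuclei, 10 in INH-like and 9 in CA1-like nuclei. Their median in CA2/3-like nuclei was -0.18, and that of all 601 genes of such length was -0.14. Across the channel genes tested, the log2 fold change correlated with log10 gene length at r = -0.47 in CA2/3-like and r = -0.36 in INH-like nuclei, against -0.25 and -0.18 over all genes. In DG-like and CA1-like nuclei it was -0.18 and -0.10, against -0.19 in both over all genes. Genes are not independent replicates, and the part of length in the results of single genes was tested only by removing its trend. The trend was removed in fits for stress, diet and genotype, and not in the tests of differences between RSD effects. Kcnip4, the longest, was lower in every pair in DG-like, CA1-like and CA2/3-like nuclei, with log2 fold changes of -0.35, -0.27 and -0.47 that were not called (edgeR adjusted p 0.136 to 0.266).

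**Figure D4:**
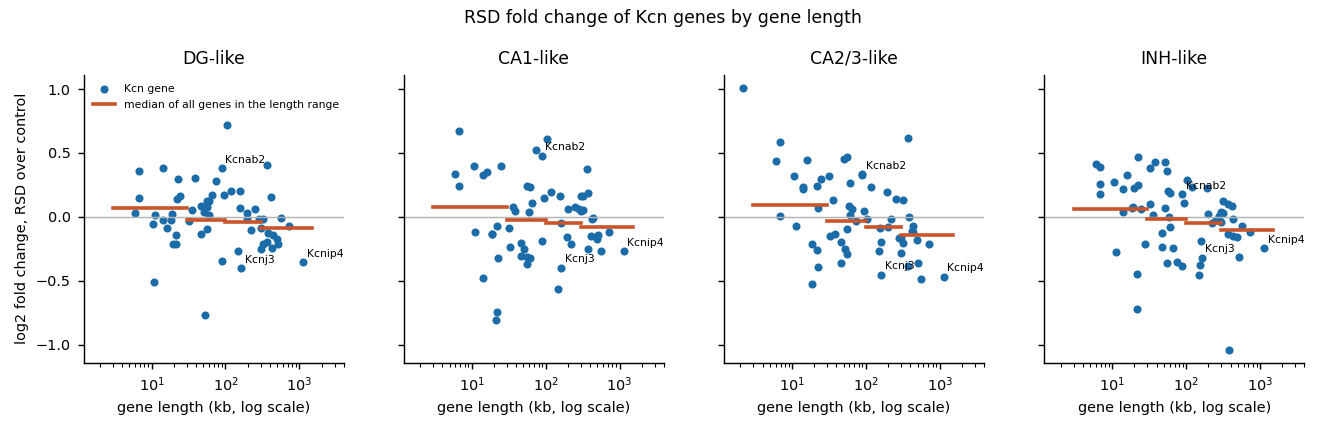
RSD log2 fold change (y axis) of each tested Kcn gene (points) against its length in kb (x axis, log scale) in 4 neuronal classes. Orange bars give the median of all genes in each length range and lie lowest for genes over 300 kb, at -0.09 in DG-like and -0.14 in CA2/3-like nuclei.

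By family, the auxiliary genes held the 1 called gene, Kcnab2. In DG-like nuclei all 6 tested EAG/ERG/ELK genes and all 3 Kv4 genes had values under 0 (medians -0.15 and -0.10), and all 4 Kv3 genes had values above 0 (median 0.09), but no member was called. In the other classes this was mostly not so: of the EAG/ERG/ELK genes 3 of 6 were above 0 in CA1-like, 2 of 6 in CA2/3-like and 5 of 8 in INH-like nuclei, and of the Kv4 genes 1 of 3 in each. Of the 4 Kv3 genes 3, 2 and 4 were above 0 in these classes. Over all tested channel genes the median log2 fold change was -0.0133 in DG-like, -0.0148 in CA1-like, -0.0303 in CA2/3-like and 0.026 in INH-like nuclei, and over all genes it was 0.00272, 0.00254, -0.0075 and -0.000257. Of 17 fixed partner genes without a Kcn name (among them Dpp6 and Dpp10, which bind Kv4, and the Hcn genes), none was called for stress, diet or genotype. The smallest adjusted p values for stress were 0.0551 for Hcn2 in CA2/3-like nuclei (log2 fold change 0.75) and 0.0664 for Abcc8, the regulatory subunit of ATP-sensitive channels, in DG-like nuclei (0.54). In DG-like nuclei 5 of 14 tested partners were above 0, and in CA2/3-like nuclei 6 of 14.

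The PLX5622 diet was compared with vehicle over control and stressed pools. No channel gene was called in the 4 neuronal classes, where 0.0% of all genes were called in INH-like, 0.068% in DG-like, 0.00885% in CA1-like and 0.0333% in CA2/3-like nuclei. In each class 3 channel genes had an unadjusted p under 0.05, beside 4.69%, 6.95%, 5.68% and 5.02% of all genes in the same order. In DG-like nuclei Kcnq5 had 167 and 214 CPM in the Control- and Stress-Vehicle pools and 327 and 227 CPM in the Control- and Stress-PLX5622 pools. The PLX5622 pools were higher, mostly through the control pool, and the log2 fold change of 0.58 (SE 0.18) was not called (edgeR adjusted p = 0.453). Within the larger DG-like cluster, which held 29.8% and 17.8% of the class in the PLX5622 pools and 74.2% and 46.7% in the vehicle pools, it was 0.23 (adjusted p = 0.916). In CA2/3-like nuclei Kcna1, a Kv1 pore of axons, had 37.1 and 48.2 CPM with vehicle and 14.5 and 31.1 CPM with PLX5622 (log2 fold change -1.06, SE 0.34, adjusted p = 0.95). In CA1-like nuclei Kcnmb2 had 14.6 and 24.7 CPM with vehicle and 43.2 and 36.1 CPM with PLX5622 (1.28, SE 0.37, adjusted p = 0.53).

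Outside neurons, 33 channel genes were tested in oligodendrocyte precursor-like, 29 in oligodendrocyte-like and 27 in astrocyte-like nuclei, and 1 was called. Over all genes, stress called 0.075% in precursor-like, 0.11% in oligodendrocyte-like and 0.0% in astrocyte-like nuclei, while diet called 0.0% in the latter pair of classes and genotype 0.0% in all 3. Kcnip4 in precursor-like nuclei had 1352 and 1377 CPM in the Control- and Stress-Vehicle pools and 3316 and 2141 CPM in the Control- and Stress-PLX5622 pools. The 4 genotype pools had 1212 to 1465 CPM, so both PLX5622 pools were above the other 6. The log2 fold change was 0.98 (SE 0.19, edgeR adjusted p = 0.0105), beside 0.2% of all genes called. Of the 2 clusters in this class, 1 held 94.0% and 83.8% of the nuclei in the PLX5622 pools and 20.7% to 59.4% elsewhere, and within it the log2 fold change was 0.55 (adjusted p = 0.886). The call was also lost with DESeq2 (0.126), without Control-PLX5622 (log2 fold change 0.55, adjusted p = 0.505), without Control-Vehicle (0.699) or Stress-Vehicle (0.0635), and with nuclei thinned to 500 UMIs (0.0681). The level in precursor-like nuclei on vehicle was near that of microglia-like nuclei, and the part of neuronal RNA was not tested.

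The deletion of Il1r1 was compared with IL-1R1+/+ over control and stressed pools. No channel gene was called in any class, beside 0.0085% of all genes in DG-like, 0.00885% in CA1-like and 0.0% in CA2/3-like and INH-like nuclei. With an unadjusted p under 0.05 there were 0, 1, 1 and 0 channel genes in these classes, beside 2.18%, 2.24%, 2.07% and 2.9% of all genes. The smallest p in CA2/3-like nuclei was that of Kcnk4 (TRAAK, a mechanically gated K2P channel), with 19.7 and 24.8 CPM in the Con- and Stress-IL-1R1+/+ pools and 13.5 and 14.2 CPM in the Con- and Stress-nIL-1R1-/- pools. Both IL-1R1+/+ pools were higher (log2 fold change -0.62, SE 0.23, edgeR adjusted p = 1.0). In CA1-like nuclei Kcna6 had 4.69 and 5.48 CPM in IL-1R1+/+ and 8.88 and 7.26 CPM in nIL-1R1-/- pools (0.73, SE 0.36, adjusted p = 1.0).

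Whether the stress effect itself differed with genotype was tested against the spread of the diet pairs. This left 1 residual degree of freedom per gene, before moderation over all genes. No channel gene was called in the 4 neuronal classes, and the smallest adjusted p was 0.429, in INH-like nuclei. All genes were called at 0.0542% in INH-like, 0.0% in DG-like, 0.00885% in CA1-like and 0.0% in CA2/3-like nuclei. With an unadjusted p under 0.05 there were 3, 1, 0 and 2 channel genes in this order, beside 3.08%, 2.55%, 2.73% and 1.63% of all genes. Single pairs of pools, which have no replicate, can be described by counting intervals alone. Where the intervals of both genotypes left out 0, they lay on the same side for 11 genes and on opposite sides for 5 in INH-like nuclei. In DG-like nuclei these counts were 6 and 4, in CA1-like nuclei 7 and 1, and in CA2/3-like nuclei 11 and 0. The same counts were not made over all genes, so they are not read as particular to channel genes. The examples that follow are of opposite sides and were chosen after their values were seen. Kcnd2 in DG-like nuclei had a log2 ratio of -0.07 (95% interval -0.10 to -0.03) in the IL-1R1+/+ pair and 0.10 (0.06 to 0.13) in the nIL-1R1-/- pair. In CA1-like nuclei the same gene had -0.11 (-0.15 to -0.08) and 0.10 (0.07 to 0.13). Kcnip4 in INH-like nuclei had 0.13 (0.09 to 0.17) and -0.31 (-0.34 to -0.28). These intervals are exact, conditional on the 2 counts, and cover counting error only, so they leave out the difference between mice.

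The stress effect differed with diet for 1 of 63 channel genes in INH-like nuclei (all genes 0.116%). It was called for none in DG-like (all genes 0.11%), CA1-like (0.0885%) or CA2/3-like nuclei (0.242%). Before adjustment 9, 11, 4 and 7 channel genes in INH-like, DG-like, CA1-like and CA2/3-like nuclei had a p under 0.05, beside 7.68%, 8.62%, 7.14% and 8.81% of all genes. Kcnip1, a KChIP of inhibitory neurons, went from 643 to 837 CPM with stress on vehicle and from 1120 to 662 CPM on PLX5622. The direction turned between the diets, and the difference was -1.23 on the log2 scale (SE 0.27, edgeR adjusted p = 0.0357). This test sets 1 pair against 1 pair and takes its spread from the genotype pairs, with 1 residual degree of freedom per gene. That spread was moderated over all genes, so the p-value does not rest on Kcnip1 alone. The same difference was under 0 and not called in DG-like (-0.89, adjusted p = 0.537), CA1-like (-1.49, 0.597), CA2/3-like (-1.41, 0.343) and astrocyte-like nuclei (-1.80, 0.531), so it was not shown to be particular to INH-like nuclei. In the genotype experiment Kcnip1 went from 732 to 783 CPM and from 475 to 774 CPM. As the Adarb2 lineage had more Kcnip1 than the Lhx6 lineage, its share is given: 262 of 919 INH-like nuclei in Control-Vehicle, 190 of 661 in Stress-Vehicle, 247 of 790 in Control-PLX5622 and 201 of 680 in Stress-PLX5622. The part of this share in the result was not tested.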

How the data were processed

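Single-nuclei RNA was measured in 8 pools of hippocampi from 3 mice each, barcoded by split-pool ligation (Parse Biosciences) and sequenced as sublibraries that each hold all pools. The methods describe more sublibraries than the 4 analysed here. The authors aligned reads to mm39 with the Parse pipeline and deposited UMI counts per gene and nucleus for each pool, with no normalization (Seurat 4.1.1 in the submitters' notes; the annotation release is not given in the sources used here). Pools were assigned to conditions from the treatment text of the labels.

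Nuclei with over 20% mitochondrial counts were left out, no doublet caller was run, and nuclei were clustered without Kcn genes (scanpy 1.11.5, 2000 variable genes, 30 principal components, 15 neighbours, Leiden resolution 1.0). A cluster was named where at least 3 and 60% of a list's markers reached 20% of their highest cluster's CPM, with a score over 1.25 times the next and an own marker among its leading genes. These naming thresholds were settled after clusters were seen. Counts were summed per class and pool and tested with edgeR 4.0.16 (TMM, filterByExpr, Benjamini-Hochberg over all genes tested, 3 residual degrees of freedom, and fewer in the tests of differences between RSD effects) in R 4.3.3. These degrees of freedom are per gene, before edgeR moderated each gene's spread over all genes. Fits on 1 experiment alone also had fewer. The pairing comes from the design: a control pool and its stressed pool had the same diet and genotype. The study's test on nuclei as replicates was not used. Alternatives were RLE size factors, DESeq2 1.42.0, no filter, thinning to 500 UMIs, 15 principal components, leaving out the 5% deepest nuclei, no pairing and leaving out each pool. Added after seeing the data were single clusters, 1 experiment alone, removal of the gene-length trend, and the tests of differences between RSD effects. On simulated counts for stress in DG-like nuclei (10890 genes), 40% of genes changed 1.5-fold and 81.6% of those changed 2-fold were recovered, and 4 of 10694 unchanged genes were called. The simulation gave each changed gene the same fold in all 4 pairs and no other difference between pairs. These shares thus do not cover effects that vary between pairs. Named genes were all called ones, the smallest p in each direction per neuronal class and comparison, the 3 highest ratios to the second class per class, and a list by role; others named for a pattern over pairs were chosen after their values were seen. Some genes that the rule names are not reported here. The members and lists were chosen with earlier results of these data known. Gene positions and lengths came from GENCODE vM39, which held all 76 genes.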

Additional observations from a re-analysis of the deposited data

Results flagged for a closer look

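Of 50 groups of 4 control or 4 stressed pools examined for the named genes, 5 held a pool far from the other 3. The cut flags about 1 in 20 groups by chance where genes are picked without regard to their values. These genes were named for being called or for the smallest p in the same pools, so that rate does not apply to them. Kcnip4 in oligodendrocyte precursor-like nuclei had 3320 CPM in Control-PLX5622 against 1210 to 1370 CPM in the other control pools. Kcnq5 in DG-like nuclei had 327 CPM in Control-PLX5622 against 157 to 167 CPM. Kcnd1, a Kv4 gene, had 14.5 CPM in CA2/3-like nuclei of Control-PLX5622 against 1.64 to 3.39 CPM. Kcnq1 in INH-like nuclei had 31.4 CPM in Control-PLX5622 against 58.6 to 64.1 CPM. Kcnk4 in CA2/3-like nuclei had 19.7 CPM in Con-IL-1R1+/+ against 13.1 to 14.1 CPM. The 4 values in Control-PLX5622 came from a pool with a median of 598 UMIs per nucleus, the lowest of the 8.

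The effect of stress differed between the experiments in CA2/3-like nuclei for 4 genes by edgeR's quasi-likelihood test of the difference (genotype pairs minus diet pairs, log2 scale). These were Kcnq5 (1.07, SE 0.204, adjusted p = 0.00011), Kcnc2 (0.777, SE 0.201, adjusted p = 0.0183), Kcnk2 (-1.25, SE 0.287, adjusted p = 0.00352) and Kcnt1 (-1.35, SE 0.382, adjusted p = 0.04). It differed between the diets in INH-like nuclei for Kcnip1 (-1.23, SE 0.268, adjusted p = 0.0357, PLX5622 minus vehicle).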

How the results depend on the processing

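The counts of called channel genes moved as follows. The shares of all genes called under these settings are not given here, so the counts are not read as particular to channel genes. For stress in DG-like nuclei (none called) there were 3 without the filter, 3 in the diet pools alone, 1 in the genotype pools alone, 1 with the length trend removed and 0 to 1 with each pool left out. In CA1-like nuclei (1 called) there were 2 with RLE, 3 without the filter, 2 after thinning, 2 with 15 principal components, 0 with no pairing (no replicate block), 3 in the diet and 3 in the genotype pools alone, and 0 to 1 with each pool left out. In CA2/3-like nuclei (none called) there were 2 with DESeq2, 3 without the filter, 4 in the diet and 4 in the genotype pools alone, 1 in the larger cluster and 0 to 2 with each pool left out. In INH-like nuclei (none called) there was 1 without the filter and 1 in the diet pools alone. For diet there were 0 to 1 in DG-like nuclei with each pool left out and 7 in CA2/3-like nuclei with 15 principal components. In that setting the CA2/3-like class joined clusters of 4332 and 3410 nuclei, against 3849 nuclei in the main run. The cluster of 3410 nuclei had a median depth of 0.618 of the pool median. The part of this change of nuclei in the 7 calls was not tested. In the other classes (1 called) there were 0 with DESeq2, without the filter, with no pairing and in the cluster with most PLX5622 nuclei, and 0 to 1 with each pool left out. The 4 genes whose stress effect differed between experiments became 1 in the larger cluster, 0 after thinning, and 0 to 7 with each pool left out. Single-pool ratios of channel genes whose interval left out 0 numbered 337 of 1216, and 127 after thinning, and the share over all genes was not worked out. Among results that were not called, the sign turned for Kcnk12 with genotype in DG-like nuclei (-0.00716 without Con-IL-1R1+/+, to 0.57 with another pool left out), Kcnd1 with diet in CA2/3-like nuclei (-7.11 without Control-PLX5622, to 2.45), Kcnh3 with genotype in INH-like nuclei (-0.33 without Con-nIL-1R1-/-, to 1.54, and -0.0636 with 15 principal components) and Kcnc1 there after thinning (0.0741). The causes were not tested, apart from fewer pools or counts by construction. DESeq2 gave no adjusted p for 41, 20, 44 and 35 channel genes in INH-like, DG-like, CA1-like and CA2/3-like nuclei. Depth limits low genes, and 1 pool per condition limits every comparison.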
